A study of Saccharomyces cerevisiae with 6 samples.

Results

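The 9 genes of lower glycolysis in the budding yeast Saccharomyces cerevisiae were followed from total RNA into RNA assemblies formed in a test tube. They were taken by their identifiers and are TDH1, TDH2, TDH3, PGK1, GPM1, ENO1, ENO2, CDC19 and PYK2, all 9 of which were found among the 6603 open reading frames measured. The data comprised 3 libraries of pelleted RNA assemblies and 3 libraries of total RNA. All RNA came from BY4741, a laboratory strain grown to log phase without treatment, by phenol and chloroform extraction, and both groups were depleted of ribosomal RNA. Assemblies had formed at 150 mM NaCl, 10% PEG, 1 mM MgCl2 and 150 µg/mL RNA. These are therefore assemblies of purified RNA without cells or protein, and the comparison asks which mRNAs enter them. Whether the total RNA was also placed in this buffer is unclear, because the labels say so for both groups and the design text does not.

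Lower glycolysis carries glyceraldehyde 3-phosphate to pyruvate in the cytosol and yields the net ATP of the pathway. Its enzymes are among the most abundant proteins of yeast growing on glucose. Several steps are served by isozymes, related enzymes from separate genes, which differ in how strongly and under which conditions they are expressed.

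The value of a gene is its normalised read count, that is, its reads divided by 1 size factor per library. Such scaling sets the median gene to about no change, so fold changes are read against that gene and say nothing of RNA amounts. Reads on open reading frames numbered 8749240 to 10531980 per library. Transcripts of LEU2 and MET17, which are deleted in BY4741, were at 0 in all 6 libraries, and URA3 had at most 0.862 normalised reads. HIS3, which is deleted only in part in BY4741, had 159 to 204 normalised reads in assemblies and 221 to 293 in total RNA. Total RNA libraries 1 and 2 were the most alike of the pairs within a group, with a chi-square per degree of freedom of 1.56 against 11.7 to 57.5 for the others. No label states that the libraries of a group are separate cultures or separate reactions, so the p-values cover the spread among these libraries alone, which may be technical.

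The 9 mRNAs did not move together. In assemblies 3 of them rose (PYK2, TDH3 and CDC19), 3 fell (PGK1, TDH1 and GPM1) and 3 did not pass the test (TDH2, ENO1 and ENO2), by limma on log2(value + 1) at an adjusted p threshold of 0.05. The fold change ran from 3.51 for PYK2 to 0.252 for PGK1, a span of 13.9 times. Over the 5670 genes tested, 41.3% were called higher and 40.8% lower, 82.2% in all, so the counts of 3 higher and 3 lower among 9 (33.3% each) are near the background. The median log2 fold change was -0.20 over the 9 genes and 0.02 over all genes tested. Assembly and total RNA values did not overlap in 6 of the 9 genes (66.7%), and over all genes tested this was so in 85.3%. The counts rest on the scaling: when all libraries were given the same total, which shifts the median of all genes by -0.56 on the log2 scale, 1 of the 9 was called higher and 6 lower, against 27.9% higher and 53.7% lower over all genes.

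**Figure D1:**
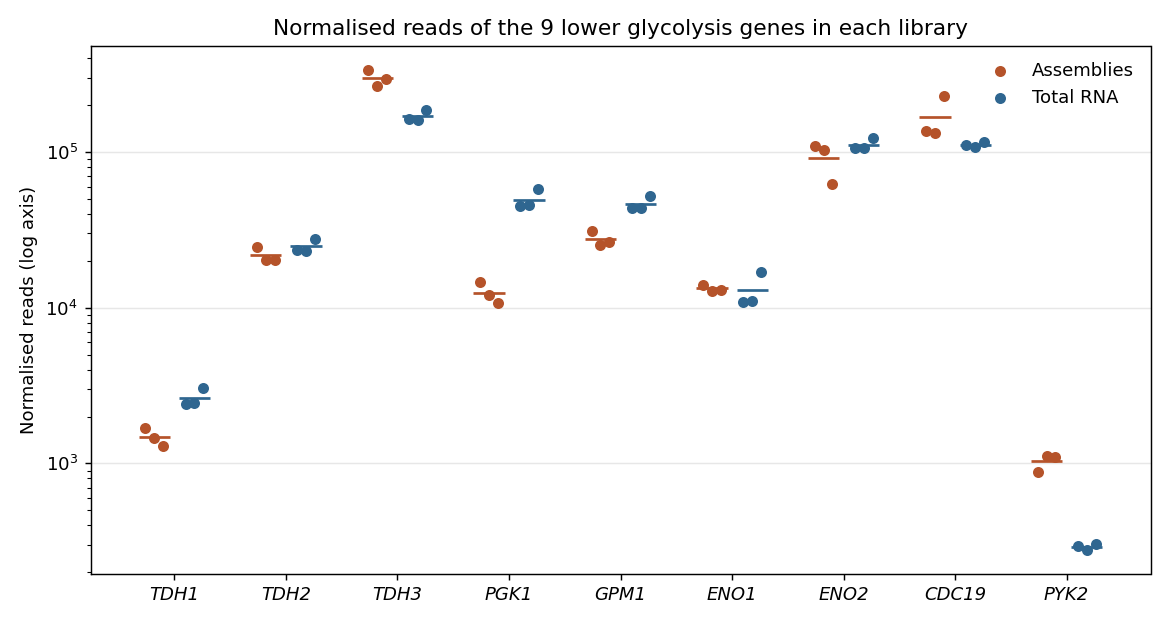
Normalised reads (log axis) of each gene in each library, with 3 points for assemblies on the left and 3 for total RNA on the right, in library order 1 to 3, and a bar at the mean. PGK1 lies far lower in assemblies (10666 to 14616) than in total RNA (44752 to 58107), while TDH3 and PYK2 lie higher in assemblies without overlap.

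The first step, catalysed by glyceraldehyde-3-phosphate dehydrogenase, is encoded by TDH1, TDH2 and TDH3. TDH3 (YGR192C) supplies the main isozyme of growing cells and lies on chromosome VII at 882812 to 883810. TDH2 (YJR009C) is a further isozyme of growing cells, on chromosome X at 453683 to 454681, and TDH1 (YJL052W), known for expression toward stationary phase, lies on chromosome X at 338271 to 339269. All positions are those of the coding sequence in the RefSeq annotation of build R64, 1-based. Each of the 3 genes is a single uninterrupted coding sequence of 999 nt, so coding length does not differ between them.

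Their sequences are shown because the isozymes behaved differently and because their likeness limits how reads can be assigned. TDH2 and TDH3 were identical at 957 of 999 aligned positions (95.8%), TDH1 and TDH2 at 901 (90.2%) and TDH1 and TDH3 at 888 (88.9%). The longest run without a difference between TDH3 and TDH2 covered 173 bases, coding positions 355 to 527 in both. It lies on the minus strand at chrVII:883284-883456 in TDH3 and at chrX:454155-454327 in TDH2. A read that falls inside this run cannot be assigned to 1 of the 2 genes:
TDH3 and TDH2: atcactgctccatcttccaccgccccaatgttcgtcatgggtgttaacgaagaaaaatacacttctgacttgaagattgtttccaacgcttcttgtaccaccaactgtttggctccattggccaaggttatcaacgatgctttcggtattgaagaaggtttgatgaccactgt

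The stretch of 60 bases that differs most among the 3 genes spans coding positions 64 to 123. It is at chrX:338334-338393 on the plus strand in TDH1, at chrX:454559-454618 on the minus strand in TDH2 and at chrVII:883688-883747 on the minus strand in TDH3. Capitals mark the 21 positions at which the 3 sequences are not all the same:
TDH1: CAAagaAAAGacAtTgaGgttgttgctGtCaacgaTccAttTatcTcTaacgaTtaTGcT
TDH2: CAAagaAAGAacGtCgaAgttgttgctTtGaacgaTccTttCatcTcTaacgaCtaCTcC
TDH3: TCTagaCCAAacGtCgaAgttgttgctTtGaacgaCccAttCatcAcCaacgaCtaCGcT

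Of all runs of 50 bases in the coding sequence, 75.6% occurred once in the genome for TDH3, 68.7% for TDH2 and 84.3% for TDH1. The sources used here give neither the read length nor how reads with several matches were handled.

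TDH3 had 336913, 263992 and 296317 normalised reads in assembly libraries 1, 2 and 3, against 162777, 160696 and 186269 in total RNA libraries 1, 2 and 3. Every assembly value was above every total RNA value. By mean normalised reads, not corrected for length, TDH3 was the first of all 6603 open reading frames in total RNA and the third in assemblies. TDH3 rose, with a log2 fold change of 0.81 (SE 0.17; 1.76-fold; limma, adjusted p = 0.000827). The authors' deposited table gives TDH3 a fold change of 1.76 and a p-value of 7.72e-06. The call depends on the scaling, since the log2 fold change was 0.25 with equal library totals (adjusted p = 0.208) and -0.10 after quantile normalisation (adjusted p = 0.526).

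TDH2 had 24489.8, 20339.7 and 20131 normalised reads in assemblies, against 23543, 23117 and 27745 in total RNA. The highest assembly library lay within the range of total RNA, so the groups overlapped. The log2 fold change of TDH2 was -0.20 (95% interval -0.52 to 0.12; limma, adjusted p = 0.229). Without assembly library 1 it was -0.29 and passed the threshold (adjusted p = 0.0339), and with equal library totals it was -0.76 (adjusted p = 0.000708).

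TDH1 had 1677, 1446 and 1294 normalised reads in assemblies, against 2423, 2445 and 3030 in total RNA. The groups did not overlap, and TDH1 fell by 0.84 on the log2 scale (SE 0.14; 0.559-fold; limma, adjusted p = 0.000166). TDH1 was called lower under all 20 alternatives run, with log2 fold changes from -1.45 to -0.73. Among 1390 nuclear protein-coding genes of 500 to below 1000 nt, the median log2 fold change was -0.94. Of these genes 54.1% lay below TDH1, 74.5% below TDH2 and 90.9% below TDH3. At 999 nt the TDH genes lie at the upper edge of this range, and the median of the next range, 1000 to below 2000 nt, was 0.09. These placings therefore depend on where the range ends. With length and GC content fitted out, TDH1 had -0.75 (limma, adjusted p = 0.000233) and TDH3 had 0.81 (adjusted p = 0.000206).

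The ratio between 2 mRNAs within a library does not depend on how libraries are scaled. TDH3 had 13.8, 13.0 and 14.7 times the reads of TDH2 in assembly libraries 1, 2 and 3, against 6.91, 6.95 and 6.71 times in total RNA libraries 1, 2 and 3. TDH3 had 201, 183 and 229 times the reads of TDH1 in assemblies, against 67.2, 65.7 and 61.5 times in total RNA. TDH2 had 14.6, 14.1 and 15.6 times the reads of TDH1 in assemblies, against 9.72, 9.46 and 9.16 times in total RNA. In all 3 ratios the groups did not overlap.

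On the log2 scale the TDH2 to TDH3 ratio averaged -3.79 (SD 0.09, n = 3) in assemblies and -2.78 (SD 0.03, n = 3) in total RNA, a difference of -1.01 (exact permutation test, 2-sided, p = 0.1; 0.125 after Benjamini-Hochberg adjustment over 5 isozyme pairs). The difference was -1.65 for TDH1 to TDH3 and -0.64 for TDH1 to TDH2, with the same p and adjusted p in the exact test. With 3 libraries against 3, 0.1 is the smallest p that the test allows, so no pair could pass 0.05. The order of the 3 genes in this shift, TDH3 above TDH2 above TDH1, was the same under each of the 10 alternatives run. TDH2 and TDH3 share reads as described above, and the part of that sharing in the ratio was not tested.

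**Figure D2:**
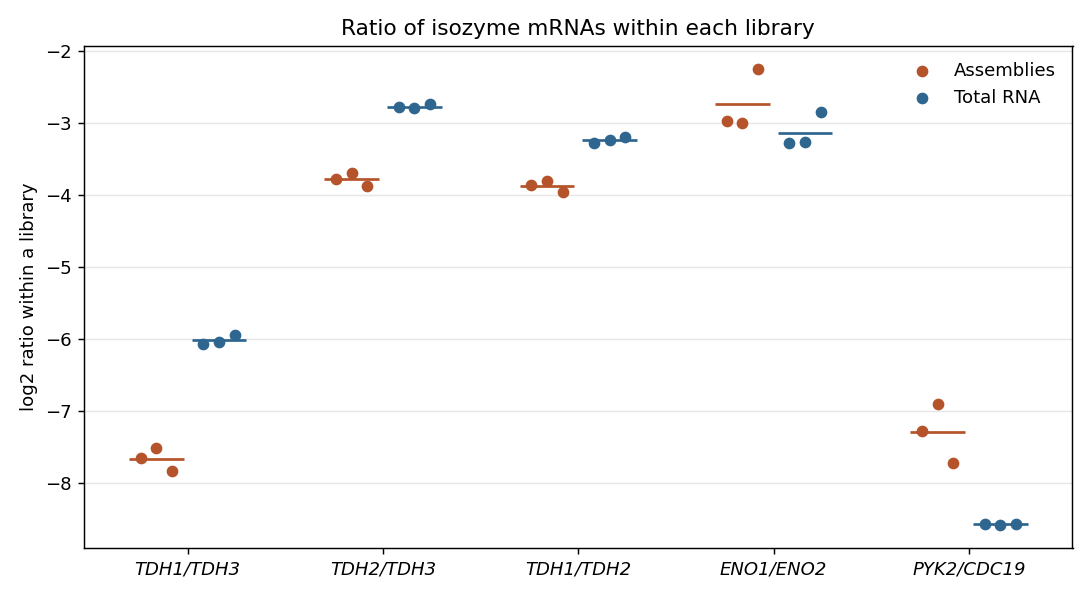
Log2 ratio of 2 isozyme mRNAs within a library, with assemblies on the left and total RNA on the right of each pair, 1 point per library and a bar at the mean. The 3 TDH ratios lie lower in assemblies, the PYK2 to CDC19 ratio lies higher, and the ENO1 to ENO2 ratios overlap.

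PGK1 (YCR012W) encodes phosphoglycerate kinase, the first ATP-forming enzyme of the pathway, and has no isozyme in yeast. Its coding sequence of 1251 nt lies on chromosome III at 137746 to 138996, and every run of 50 bases in it is unique in the genome. PGK1 had 14616, 12119.8 and 10666 normalised reads in assembly libraries 1, 2 and 3, against 44752, 45603 and 58107 in total RNA libraries 1, 2 and 3. The highest assembly value was below the lowest total RNA value, and in mean normalised reads, not corrected for length, PGK1 was the 152nd open reading frame in assemblies and the 14th in total RNA. PGK1 fell by 1.99 on the log2 scale (SE 0.17; 3.97-fold lower; limma, adjusted p = 5.09e-07). The authors' deposited table gives PGK1 a fold change of 0.252 and a p-value of 1.86e-18. PGK1 was called lower under all 20 alternatives run, with log2 fold changes from -2.64 to -1.87.

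PGK1 lay near the bottom of the genes of like coding length. Among 2148 nuclear protein-coding genes with 1000 to below 2000 nt, the median log2 fold change was 0.09, and 36 genes lay below PGK1. With coding length and GC content fitted out, the log2 fold change of PGK1 was -2.27 (limma, adjusted p = 4.19e-06). Set against TDH3, the step before it, TDH3 had 23.1, 21.8 and 27.8 times the reads of PGK1 in assemblies, against 3.64, 3.52 and 3.21 times in total RNA.

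GPM1 (YKL152C) encodes phosphoglycerate mutase and has the shortest coding sequence of the 9 genes, with 744 nt on chromosome XI at 163642 to 164385. GPM1 had 31179, 25396 and 26444 normalised reads in assemblies, against 43648, 43684 and 52445 in total RNA. The groups did not overlap, and GPM1 fell by 0.75 on the log2 scale (SE 0.15; 0.594-fold; limma, adjusted p = 0.00059). Among 1390 nuclear protein-coding genes of 500 to below 1000 nt the median log2 fold change was -0.94, and 57.6% of them lay below GPM1. With length and GC content fitted out, the log2 fold change of GPM1 was -0.19 and the call was lost (limma, adjusted p = 0.0978).

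Enolase, which makes phosphoenolpyruvate, is encoded by ENO1 (YGR254W, chromosome VII, 1000927 to 1002240) and ENO2 (YHR174W, chromosome VIII, 451327 to 452640), each with 1314 nt. ENO2 is known for its induction by glucose, while ENO1 is known to be less dependent on the carbon source. The 2 coding sequences were identical at 1246 of 1314 positions (94.8%), with a longest identical run of 112 bases, and 76.4% of the runs of 50 bases in each were unique in the genome. The 60 bases that differ most are shown because places like these are where a read can be assigned to 1 enolase gene. They are coding positions 340 to 399, at chrVII:1001266-1001325 in ENO1 and chrVIII:451666-451725 in ENO2, both on the plus strand, and capitals mark the 13 differing positions:
ENO1: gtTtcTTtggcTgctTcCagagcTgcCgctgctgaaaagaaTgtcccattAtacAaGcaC
ENO2: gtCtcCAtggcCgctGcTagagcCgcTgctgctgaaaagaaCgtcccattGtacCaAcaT

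ENO1 had 14001, 12878 and 13017 normalised reads in assemblies, against 10835, 10971 and 16969 in total RNA. All 3 assembly values lay inside the range of total RNA, which was set by total RNA library 3. The log2 fold change of ENO1 was 0.07 (95% interval -0.31 to 0.46; limma, adjusted p = 0.71). It turned to -0.038 without total RNA library 1 and to -0.029 without total RNA library 2, was 0.29 without total RNA library 3, and was -0.49 with equal library totals, where it passed the threshold (adjusted p = 0.0171).

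ENO2 had 109972, 102956 and 62038 normalised reads in assemblies, against 105442, 106025 and 122937 in total RNA. Assembly libraries 1 and 2 lay close to total RNA libraries 1 and 2, and assembly library 3 lay far below them. The log2 fold change of ENO2 was -0.32 (95% interval -0.79 to 0.15; limma, adjusted p = 0.179). Without assembly library 3 it was -0.063 (adjusted p = 0.696), and with length and GC content fitted out it was -0.84 (adjusted p = 0.00591). It also passed the threshold with equal library totals (-0.89, adjusted p = 0.00496) and after quantile normalisation (-0.87, adjusted p = 0.00524).

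Within a library, ENO2 had 7.85, 7.995 and 4.77 times the reads of ENO1 in assemblies, against 9.73, 9.66 and 7.24 times in total RNA. The groups overlapped, and the difference of 0.40 in the log2 ratio of ENO1 to ENO2 did not exceed the spread between libraries (exact permutation test, 2-sided, p = 0.3; 0.3 after adjustment over 5 pairs). Without assembly library 3 that difference was 0.15.

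Pyruvate kinase, which closes the pathway, is encoded by CDC19 (YAL038W, 1503 nt, chromosome I, 71786 to 73288) and PYK2 (YOR347C, 1521 nt, chromosome XV, 984942 to 986462). CDC19 encodes the main enzyme of growth on glucose, and PYK2 is a paralog known to be repressed by glucose. Their coding sequences were identical at 67.9% of the aligned positions without gaps, with a longest shared run of 14 bases, and every run of 50 bases was unique in both. The 60 bases with most differences are shown to set this pair beside the much closer TDH and ENO genes. They start near the first codon, at coding positions 9 to 68 of PYK2 (chrXV:986395-986454, minus strand) and 3 to 62 of CDC19 (chrI:71788-71847, plus strand), and capitals mark the 30 differing positions:
PYK2: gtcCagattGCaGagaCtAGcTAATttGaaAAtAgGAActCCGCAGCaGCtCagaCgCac
CDC19: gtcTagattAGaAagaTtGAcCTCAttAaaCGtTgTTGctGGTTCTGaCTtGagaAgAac

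PYK2 had 886, 1117 and 1094 normalised reads in assemblies, against 295, 279 and 303 in total RNA. The lowest assembly value was well above the highest total RNA value. PYK2 rose, with a log2 fold change of 1.81 (SE 0.13; 3.51-fold; limma, adjusted p = 3.27e-07), and it was called higher under all 20 alternatives run (1.21 to 1.92). Of the 2148 genes with 1000 to below 2000 nt, 74 lay above PYK2, and with length and GC content fitted out its log2 fold change was 1.22 (limma, adjusted p = 9.26e-06). The authors' deposited table gives PYK2 a fold change of 3.53 and a p-value of 3.65e-20.

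CDC19 had 137362, 133487 and 229918 normalised reads in assemblies, against 111757, 107140.4 and 115435 in total RNA. All assembly values were above all total RNA values, and assembly library 3 was far above the other two. CDC19 rose, with a log2 fold change of 0.54 (SE 0.21; 1.45-fold; limma, adjusted p = 0.033), but this call was not stable. It was lost without assembly library 3 (0.28, adjusted p = 0.0817) and without total RNA library 1 (0.54, adjusted p = 0.0783), 2 (0.51, adjusted p = 0.0925) or 3 (0.56, adjusted p = 0.0665), and the value was -0.030 with equal library totals. The authors' deposited table gives CDC19 a fold change of 1.498 and marks it NS in place of a p-value, so it does not call this rise.

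CDC19 had 155, 119 and 210 times the reads of PYK2 in assembly libraries 1, 2 and 3, against 379, 384 and 381 times in total RNA libraries 1, 2 and 3. The groups did not overlap, and the 3 total RNA libraries were nearly equal. PYK2 had only 390, 324 and 355 unscaled reads in total RNA libraries 1, 2 and 3. Counting error at such numbers is wider than this near equality and than the SD given next for total RNA. On the log2 scale the PYK2 to CDC19 ratio averaged -7.30 (SD 0.41, n = 3) in assemblies and -8.57 (SD 0.0081, n = 3) in total RNA, a difference of 1.27 (exact permutation test, 2-sided, p = 0.1, the smallest possible; 0.125 after adjustment over 5 pairs). The difference kept its direction under the 10 alternatives run, from 1.08 to 1.48.

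**Figure D3:**
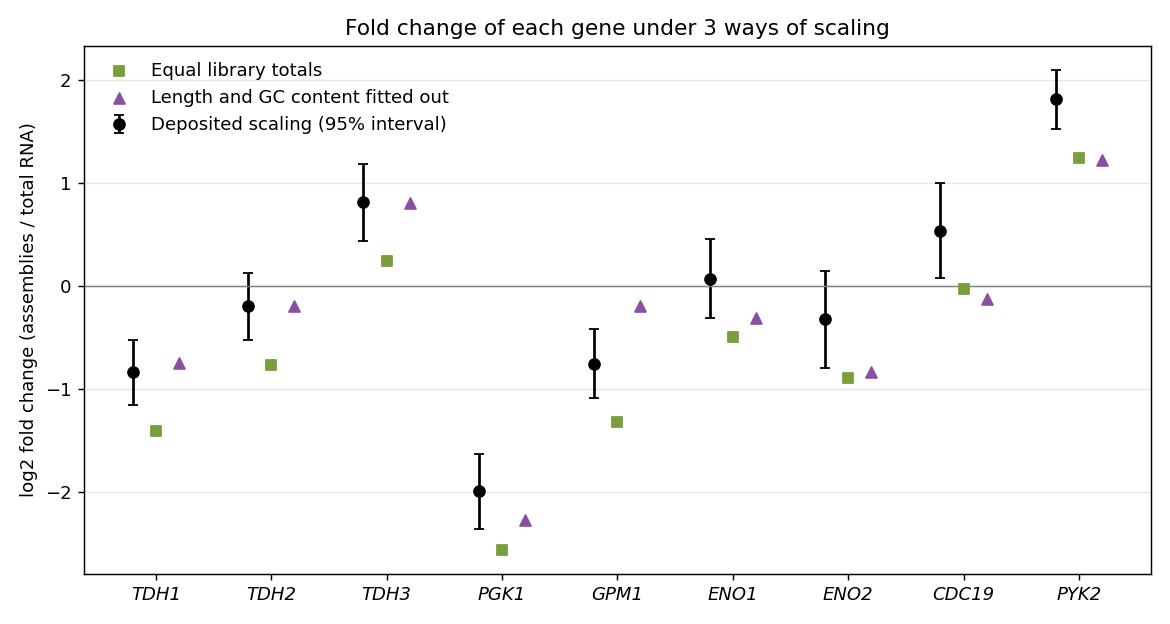
Log2 fold change of each gene, assemblies over total RNA, with the deposited scaling (circles, 95% interval), with equal library totals (squares) and with length and GC content fitted out (triangles). PGK1, TDH1, GPM1, TDH2 and ENO2 lie below 0 and PYK2 and TDH3 above 0 in all 3, though only PGK1, TDH1 and PYK2 were called in all 3. CDC19 and ENO1 lie above 0 only with the deposited scaling.

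Levels were compared between genes per kilobase of coding sequence, in normalised reads per kb. In assemblies the order was TDH3 (299374 ± 36575), CDC19 (111060 ± 36321), ENO2 (69753 ± 19702), GPM1 (37195 ± 4142), TDH2 (21675 ± 2461), ENO1 (10121 ± 466), PGK1 (9966 ± 1597), TDH1 (1474 ± 193) and PYK2 (679 ± 83.8; mean ± SD, n = 3 for each gene). In total RNA it was TDH3 (170084 ± 14216), ENO2 (84831 ± 7562), CDC19 (74148 ± 2765), GPM1 (62624 ± 6813), PGK1 (39558 ± 5977), TDH2 (24827 ± 2561), ENO1 (9836 ± 2666), TDH1 (2635 ± 344) and PYK2 (192 ± 7.83; mean ± SD, n = 3 for each gene). CDC19 and ENO2 changed places between the groups, and PGK1 stood below TDH2 and ENO1 in assemblies. Neighbours in each order did not overlap between libraries, except ENO1 and PGK1 in assemblies, which did not differ beyond their spread. Of the runs of 50 bases, 68.7% were unique in TDH2 and 76.4% in ENO1 and ENO2, but 100% in PGK1 and CDC19. The levels were not corrected for this, so places in the order next to TDH or ENO genes are uncertain.

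Together the 9 genes took 6.30%, 4.70% and 5.32% of the reads on open reading frames in assembly libraries 1, 2 and 3. In total RNA libraries 1, 2 and 3 they took 6.51%, 6.48% and 7.02%. Each of these shares has a Wilson 95% interval of at most ± 0.0161 percentage points, which covers counting error only. TDH3 alone took 3.16%, 2.16% and 2.39% in assemblies, against 2.10%, 2.08% and 2.24% in total RNA. The other 8 genes took 3.14%, 2.54% and 2.94% in assemblies, against 4.41%, 4.40% and 4.78% in total RNA. The shares of TDH3 overlapped between the groups, and those of the other 8 genes did not. Shares are on the scale of equal library totals, on which the median log2 fold change over all genes tested was -0.54. On that scale 53.7% of all genes were called lower. Whether the 8 genes together fell by more than the median gene was not tested.

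The 9 coding sequences were close in base composition, whose part in the fold changes was not tested apart from length. Their GC content ran from 44.6% in GPM1 to 47.6% in ENO2, above the upper quartile of 42.2% over 5502 nuclear protein-coding genes. Their coding lengths, 744 to 1521 nt, lay within the quartiles of those genes (750 to 1920 nt) except for GPM1. They lie on 7 chromosomes, and none shares bases with another RefSeq gene. Overlap with the 687 open reading frames that have no RefSeq match was not checked. With length and GC content fitted out, 2 of the 9 were called higher (PYK2 and TDH3) and 3 lower (PGK1, TDH1 and ENO2), against 34.6% higher and 35.4% lower over the 5502 genes.

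**Figure D4:**
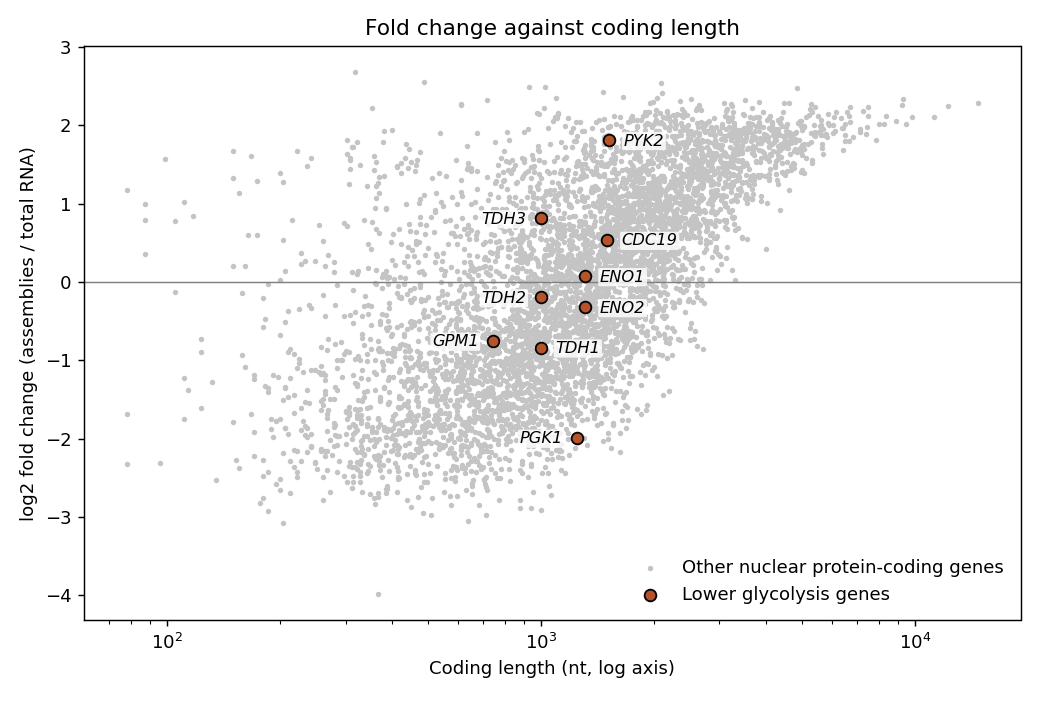
Log2 fold change, assemblies over total RNA, against coding length (log axis) for nuclear protein-coding genes (grey) and the 9 lower glycolysis genes (labelled). TDH1, TDH2 and TDH3 share a coding length of 999 nt and lie at -0.84, -0.20 and 0.81, and PGK1 (1251 nt) lies at the lower edge of the genes of its length.

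The genes on either side in the pathway were also mixed, and the counts below stand beside 41.3% of all genes called higher and 40.8% lower, or 34.6% and 35.4% with length and GC content fitted out. Of 8 upper glycolysis genes, 4 rose and 1 fell, with a median log2 fold change of 0.17 against 0.02 over all genes. PFK1 and PFK2, the subunits of phosphofructokinase, had 1.73 (SE 0.14) and 1.59 (SE 0.15), PGI1, phosphoglucose isomerase, had 0.77 (SE 0.14), HXK1, a hexokinase, had 0.31 (SE 0.12) and HXK2, the main hexokinase on glucose, had -0.47 (SE 0.13). With equal library totals 2 of the 8 were higher and 3 lower, and HXK1 turned to -0.25. With length and GC content fitted out 1 of the 8 was higher and 2 were lower. The lower genes were GLK1 (-1.145, limma, adjusted p = 0.00554), not called with the deposited scaling, and HXK2 (-0.72, adjusted p = 0.000147). PFK1 was 0.18 and kept its call (adjusted p = 0.0427). The calls of PFK2 (-0.028, adjusted p = 0.736), PGI1 (0.13, adjusted p = 0.159) and HXK1 (0.015, adjusted p = 0.892) were lost. Of 8 genes from pyruvate to ethanol, 3 rose and 4 fell (median -0.19). PDC1, the main pyruvate decarboxylase, had 0.86 (SE 0.17) and ADH1, the main fermentative alcohol dehydrogenase, had -1.04 (SE 0.15), and with equal library totals PDC1 had 0.29 and was not called (limma, adjusted p = 0.131). With length and GC content fitted out PDC1 had 0.015 (adjusted p = 0.927), ADH1 had -1.21 (adjusted p = 1.23e-05), and 2 of the 8 were higher and 4 lower. PDC5, from the same list, had 1.20 (SE 0.14) and kept its call in both settings. It had 0.63 with equal library totals (limma, adjusted p = 0.000731) and 0.60 with length and GC content fitted out (adjusted p = 0.00119).

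Of 5 genes of gluconeogenesis and pyruvate carboxylation, 4 were tested and 2 rose, the pyruvate carboxylases PYC1 (1.84, SE 0.15) and PYC2 (1.86, SE 0.17). Neither of them was called with length and GC content fitted out (-0.064 and -0.042). In that setting 0 of the 4 were higher and 2 were lower, MAE1 (-1.03, limma, adjusted p = 3.2e-05) and PCK1 (-0.50, adjusted p = 0.0355). With equal library totals 2 of the 4 were higher and 1 was lower. FBP1 had a mean below 10 and was not tested. All 6 regulators of glycolytic genes rose (median 1.18), among them GCR1, the activator of glycolytic genes, with 1.77 (SE 0.14), and 4 of the 6 were called with equal library totals. With length and GC content fitted out their median was 0.36, GCR1 had 0.86 (limma, adjusted p = 3.13e-05), 4 of the 6 were higher, and the calls of RAP1 (0.047, adjusted p = 0.565) and ABF1 (0.12, adjusted p = 0.196) were lost. Of 5 paralogs without a main role in glycolysis, 3 were tested and 2 fell, the mutase homologs GPM2 (-1.95, SE 0.22) and GPM3 (-1.87, SE 0.20). With length and GC content fitted out GPM2 had -1.04 (limma, adjusted p = 0.00133) and GPM3 had -1.23 (adjusted p = 0.000243). In that setting, and with equal library totals, 3 of the 3 tested were lower. ERR1 and ERR3, relatives of enolase, had means below 10 and were not tested.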

How the data were processed

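The submitters' processing notes name Bowtie 0.12.7, Trimmomatic 0.32, FastQC, DESeq 1.22.1 and HTSeq, and build R64. The sources used here do not give the strand setting. For each open reading frame the authors deposited a signal per library (normalised reads, per the file headers), the mean over each group, a fold ratio and a DESeq p-value, whose adjustment is not stated. All nonzero signal values (100%) were whole multiples of 1 value per library within 0.01, so whole reads were recovered. The table had 4 lines without values.

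As the values are not counts, limma 3.58.1 with a mean-variance trend (R 4.3.3) was fitted on log2(value + 1) to the 5670 genes whose mean reached 10, and two-sided p-values were adjusted by Benjamini-Hochberg. Fold changes are on that scale, which understates the change of low genes. Alternatives were pseudocounts 0.5 and 10, filters, scalings, edgeR 4.0.16 and DESeq2 1.42.0 on recovered reads, splines for length, GC content and level, a replicate block, libraries 1 and 2 of total RNA averaged, and each library left out. Isozyme ratios used exact permutation tests. Isozymes were aligned with MAFFT 7.526. Sequences came from RefSeq build R64, where 5916 of 6603 identifiers matched. The limma test was also run on simulated data with far fewer changed genes than here, which does not show its error rate in these data. The members and lists were chosen with earlier results of these data known. All 9 genes are named, and the genes of nearest pattern by the rule given with them. The list members named were called in the main fit or in a setting given with them, or were untested, except TPI1. Not every called member is named.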

Additional observations from a re-analysis of the deposited data

How the results depend on the processing

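With equal library totals, after quantile normalisation and with equal totals of the other genes (chosen after seeing the data), 1 of the 9 genes was called higher and 6 lower. Leaving out 1 library gave 2 to 3 called higher and 3 to 4 called lower. Quantile normalisation turned TDH3 to -0.10 and CDC19 to -0.0094. CDC19 was -0.030 with equal library totals, -0.049 with equal totals of the other genes and -0.12 with length and GC content fitted out. ENO1 was -0.49 with equal library totals, -0.50 after quantile normalisation, -0.51 with equal totals of the other genes, -0.052 by edgeR, -0.31 with length and GC content fitted out, -0.30 with mean level fitted out as well, and -0.034 with total RNA libraries 1 and 2 averaged. Leaving out 1 library gave ENO1 values from -0.038 to 0.29. The cause was not tested. The replicate block left 3 genes higher and 3 lower. Same-numbered libraries correlated in their deviations at 0.08, 0.17 and 0.28, and libraries of unlike number at -0.26 to 0.22. These values do not settle whether the numbers pair libraries, and the main fit did not pair them. Over all genes the block called 2375 higher and 2350 lower, against 2342 and 2316, and not every library correlated best with its own number. Differences between isozymes kept their direction in the 10 alternatives run on them: pseudocounts, the replicate block, averaged total RNA libraries and each library left out. Quantile normalisation, the spline fits, edgeR and DESeq2 were not run on these ratios. Without 1 library the differences ranged from -1.73 to -1.56 for TDH1 and TDH3, from -1.05 to -0.96 for TDH2 and TDH3, and from -0.67 to -0.60 for TDH1 and TDH2. They ranged from 0.15 to 0.54 for ENO1 and ENO2, and from 1.08 to 1.48 for PYK2 and CDC19. Every gene had at least 324 reads in each library, and precision is limited by 3 libraries per group.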

Other observations

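For each of the 9 genes, the gene of nearest pattern was taken as the one with the smallest Euclidean distance between log2(value + 1) values over the 6 libraries, each gene centred on its own mean, among 4680 other genes with a mean of at least 100 and a RefSeq match. PYK2 lay nearest to PHO91, a vacuolar phosphate transporter (distance 0.0546). GPM1 lay nearest to VMA2, a subunit of the vacuolar ATPase (0.0551), and TDH1 to GND1, an enzyme of the pentose phosphate pathway (0.0892). TDH2 lay nearest to CTS2 (0.0968), PGK1 to RPL2B, a ribosomal protein gene (0.123), CDC19 to AEP1 (0.132), TDH3 to TIF3, a translation initiation factor (0.146), and ENO2 to RPL17B, a ribosomal protein gene (0.152). RPL2B and RPL17B each have a close copy in the genome, so their values are uncertain. ENO1 had its nearest gene, SAM3, at a distance of 0.319. These distances describe likeness over 6 libraries of 2 groups and are not tests.

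Assembly library 3 differed from the other 2 assembly libraries in several abundant glycolytic mRNAs, chosen after their values were seen. TPI1, triose-phosphate isomerase, had 14976, 12180.3 and 45815 normalised reads in assembly libraries 1, 2 and 3, against 19446, 19840.4 and 25178 in total RNA libraries 1, 2 and 3. In the same library CDC19 was higher and ENO2 lower than in assembly libraries 1 and 2. PDC1, the main pyruvate decarboxylase, had 320386, 326036 and 258006 normalised reads in assembly libraries 1, 2 and 3.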
